A study of Mus musculus with 360 samples.

Results

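The genes described here are the chromatin modifiers and remodelers named by 8 symbol patterns: the Kdm lysine demethylases, the Kmt and Ezh lysine methyltransferases, the Hdac deacetylases, the DNA methyltransferases Dnmt1, Dnmt3a and Dnmt3b, the Tet dioxygenases, the Chd remodelers and the Smarc remodeler subunits. Of the 48440 genes in the matrix 69 matched, by symbol alone and with no use of their values: 20 Kdm, 15 Smarc, 11 Hdac, 9 Chd, 6 Kmt, 3 Dnmt, 3 Tet and 2 Ezh genes. A unique molecular identifier (UMI) of 66 of them was found in at least 1 cell. Kdm4dl, Kdm6bos and Smarce1-ps1 had none, and 60 genes reached a level of 10 CPM (UMIs of the gene per 1000000 UMIs) in a genotype and could enter comparisons. The cells came from the cochlea of mice given tamoxifen at 3 weeks of age and dissociated with papain at 5 weeks. The 180 control cells carried Fbxo2CreERT2::Rosa26-tdTomato, an inducible Cre at the Fbxo2 locus with a red reporter, so recombination was limited to cells that use this locus. The 180 GAP cells came from Fbxo2CreERT2::Rosa26-tdTomato::Rosa26-GAP mice, in which recombination also switches on a second Rosa26 allele. GAP stands for Gfi1, Atoh1 and Pou4f3, a trio of transcription factors of hair cell development. Cells were sorted singly by flow cytometry, and each deposited sample is 1 cell.

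Hair cells are the sensory receptors of the cochlea, and supporting cells are the epithelial cells that surround them and share their embryonic origin. In the adult mammal supporting cells do not replace lost hair cells, and closed chromatin at hair cell genes is one of the barriers under study. Remodelers of the SWI/SNF, ISWI and CHD families use ATP to slide or evict nucleosomes. Methyltransferases, demethylases and deacetylases change marks on histone tails that favour or silence transcription, and Dnmt and Tet enzymes set and oxidise DNA methylation.

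No animals are named in the labels. Each genotype is therefore 1 sample, no test between genotypes was possible, and all intervals are 95% intervals for counting error only. The well names begin with A or B for control cells and with C or D for GAP cells; these letters were read as plates, so plate and genotype cannot be told apart. UMIs were summed over a set of cells and scaled to CPM. Control cells held 4001274 UMIs and GAP cells 5366362, and the median per cell ran from 19356 in letter A to 31683 in letter C. A gene was called where it had at least 10 CPM on a side, differed at least 2-fold on the log2(CPM + 1) scale, was seen in 5 or more cells of the higher side, none of which held over 1/3 of its UMIs, and kept its direction in all 4 pairings of a GAP with a control letter. The 3 genes of the GAP allele summed to 1661 and 1509 CPM in letters C and D and to 0.504 and 0 CPM in A and B. The 12 hair cell markers summed to 212 and 235 CPM in the control letters and to 5114 and 4698 CPM in the GAP letters. The 12 markers of supporting and other non-sensory epithelial cells summed to between 11405 and 14406 CPM in every letter. S100a1 is the largest part of that sum, and of the 11 compared only S100a1 and Lgr5 were higher in GAP cells, with a list median log2 ratio of -0.79 and Ceacam16 called lower.

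Most chromatin genes lay at similar levels in GAP and control cells, and a few stood above. Of the 60 genes compared, 73.3% were within 1.5-fold, against 62.2% of all 10152 genes compared. Counting error is larger at low levels, and 5097 of the 10152 genes reached 50 CPM on a side. The 2 sets were not matched for level, and the part of level in these shares was not tested. The median log2 ratio of the 60 genes was 0.15, beside 0.10 over all genes. Chd5, Hdac9, Smarcad1, Smarcc1 and Smarcd1 were called higher in GAP cells, 5 genes or 8.33%, where 12% of all genes were called higher. None was called lower, where 5.87% of all genes were. With 1.5-fold in place of 2-fold, 13 were higher (20.8% of all genes) and 2 lower (12.6% of all genes). Both GAP letters lay above both control letters for 26 of the 60 genes (33.7% of all genes) and below them for 14 (23.5% of all genes). All 69 genes together summed to 10423 CPM in GAP cells, against 9749 CPM in the controls.

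**Figure D1:**
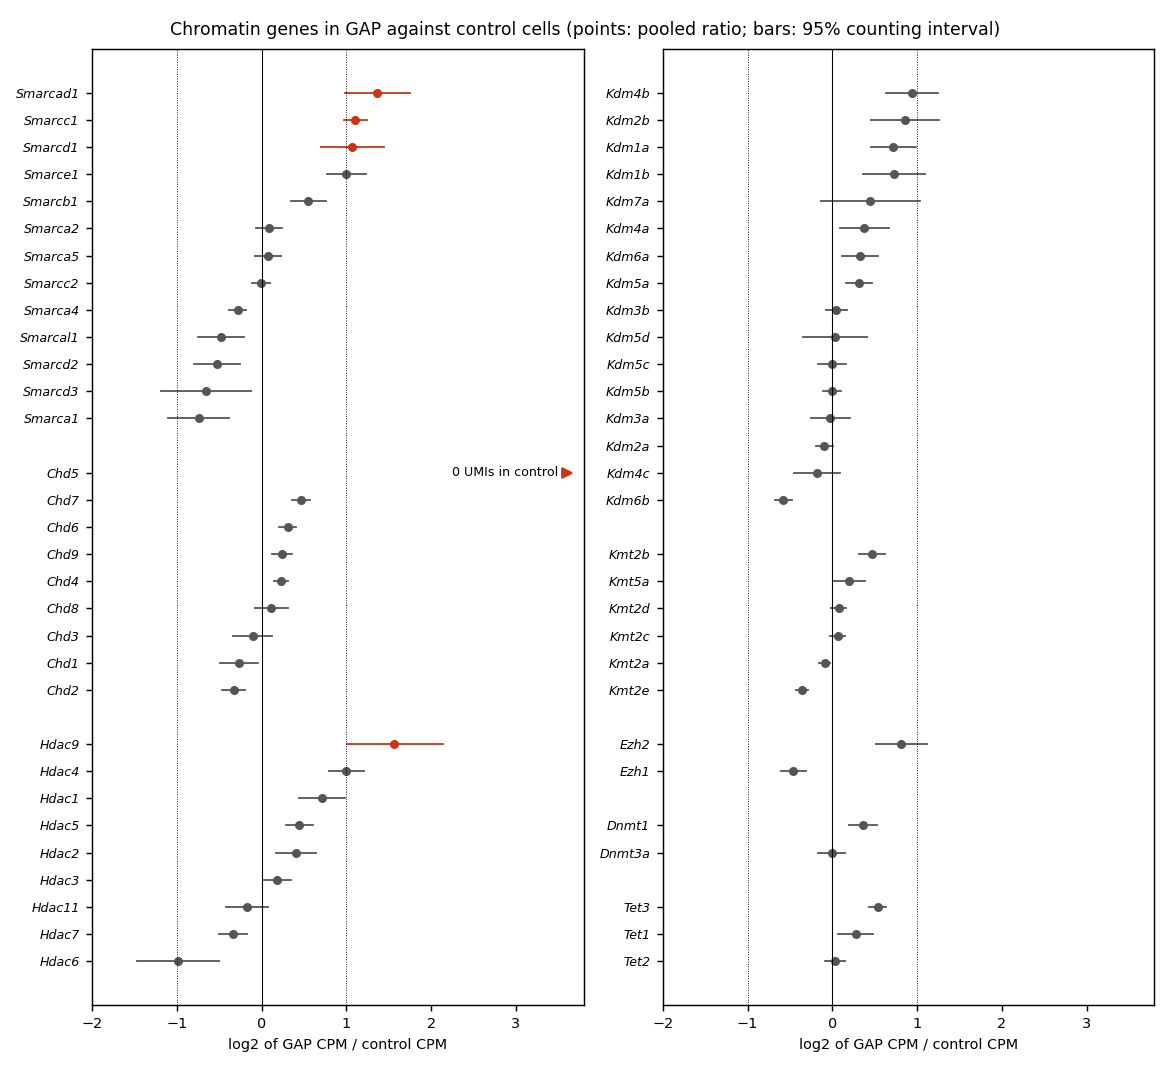
Log2 of the ratio of GAP to control CPM for the 60 genes compared, by family, with 95% counting intervals as bars, red for the 5 genes called and dotted lines at 2-fold. Most points lie between the dotted lines, and Chd5, with 0 UMIs in control cells, is drawn as an arrow at the right without a value.

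The Smarc family gave 3 of the 5 called genes, from 13 compared, where 12% of all genes were called higher. Paralogs that fill the same place in a complex did not differ alike. Most of its members are subunits of SWI/SNF, the remodeler whose core is built on a Smarca4 or Smarca2 motor. Smarcc1, a scaffold subunit, was at 160.3 and 160.1 CPM in the control letters, against 378 and 305 CPM in the GAP letters. Smarcc1 was thus higher in both GAP letters than in both control letters, as were 33.7% of all genes. Every call required this, so it adds no support. Pooled over letters, Smarcc1 stood at 345 CPM (GAP) against 160.2 CPM (control), 2.15-fold higher (1.96 to 2.36). A UMI of Smarcc1 was found in 90% of GAP cells (84.7 to 94) and 66.1% of control cells (58.7 to 73), and in 72.8% and 48.6% once each cell was thinned to 8000 UMIs. Smarcc2, the other scaffold of this position, had 298 and 300.2 CPM, with a ratio of 0.99 (0.92 to 1.07).

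Smarcd1, one of 3 alternative accessory subunits, was at 25.2 and 15.9 CPM in the control letters and 40.6 and 45.6 CPM in the GAP letters. Pooled, Smarcd1 was 2.09-fold higher (1.62 to 2.73), the smallest called difference. Its paralogs Smarcd2 and Smarcd3 lay the other way. Smarcd2 had 57.5 CPM in control and 39.9 CPM in GAP cells (1.44-fold lower, 1.19 to 1.74). Smarcd3 had 16.7 CPM in control and 10.6 CPM in GAP cells (1.58-fold lower, 1.09 to 2.29). Split by letter, Smarcd3 read 11.6 (A), 21.8 (B), 11.3 (C) and 9.85 CPM (D). The pooled difference of Smarcd3 thus rested mainly on letter B, and leaving that letter out gave a log2 ratio of -0.12. Smarce1, a DNA-binding subunit of the complex, lay just under the threshold at 52.4 and 57.5 CPM in A and B against 112.3 and 106.3 CPM in C and D, a ratio of 1.99 (1.70 to 2.34). Smarcb1, a core subunit, was at 73.7 CPM in control and 107.7 CPM in GAP cells (1.46-fold, 1.27 to 1.69).

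The motors themselves were not higher. Smarca4 was at 353 and 474 CPM in the control letters and at 340.9 and 339 CPM in the GAP letters, 1.22-fold lower (1.14 to 1.30), and Smarca2 had 148.2 and 157.6 CPM, with a ratio of 1.06 (0.96 to 1.18). Of the ISWI motors, Smarca1 had 43.3 and 30.2 CPM in A and B against 20.8 and 23.4 CPM in C and D, 1.67-fold lower (1.30 to 2.15), and Smarca5 was at 141.5 and 148.7 CPM (1.05-fold, 0.94 to 1.17). The letters of the 2 genotypes did not overlap for Smarca1, which was part of the rule by which its full values are given. Smarcad1, a remodeler of the same helicase superfamily that acts at replicated and silent chromatin, was at 18.1 and 18.8 CPM in the control letters and 56.7 and 36.1 CPM in the GAP letters, 2.56-fold higher (1.97 to 3.36). Smarcal1, an annealing helicase of stalled replication forks, was at 57 CPM in control and 40.8 CPM in GAP cells, 1.40-fold lower (1.15 to 1.69).

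**Figure D2:**
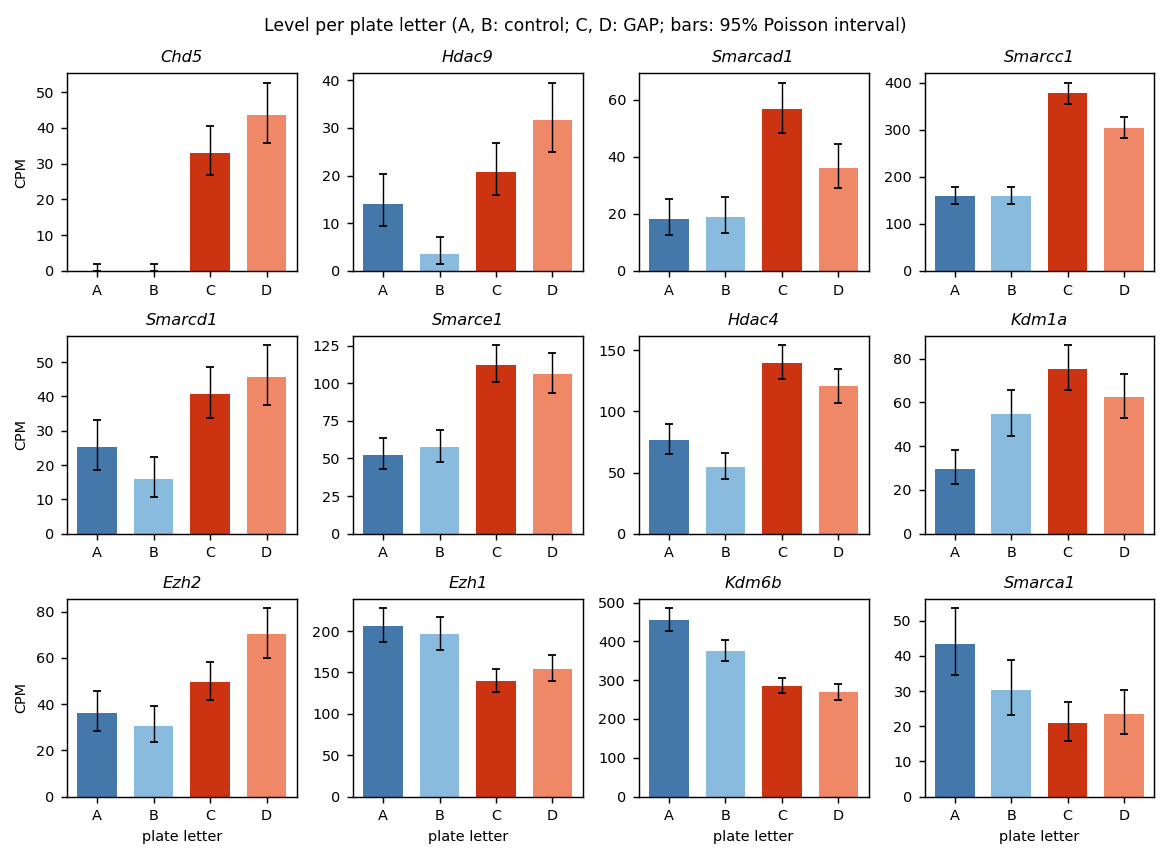
CPM of 12 genes in control letters A and B (blue) and GAP letters C and D (red), with 95% Poisson intervals as bars and a scale of its own for each gene. Chd5 has 0 UMIs in A and B, Smarcc1 stands at 160.3 and 160.1 CPM in A and B against 378 and 305 CPM in C and D, and Ezh1, Kdm6b and Smarca1 are lower in both GAP letters.

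Among these, the calls of Smarcc1 and Smarcad1 needed letter C: without it their log2 ratios were 0.92 and 0.93. Smarcd1 was not called without letter B (0.74), without letter D (0.95), after thinning (0.67) or in cells with a cluster only (0.94). The exons of Smarcc1 overlap those of Dhx30 on the opposite strand, and whether the counting used strand is not given in the sources used here, so reads of the shared stretch cannot be told apart; Dhx30 itself was at 122.5 CPM in control cells and 155.04 CPM in GAP cells.

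The CHD family held the one chromatin gene with UMIs in GAP cells and none in control cells. Chd5, a remodeler of the NuRD type found mainly in neurons and testis, had 0 UMIs in all 180 control cells and 203 UMIs in GAP cells, 37.8 CPM (32.8 to 43.4). Both GAP letters showed it, C with 33.1 CPM and D with 43.5 CPM. With the control level set at the limit of 3 counts over all control cells, Chd5 was at least 50.5-fold higher in GAP cells. That bound takes the GAP count as exact, and the 95% interval of the ratio, which covers the error of both counts, begins at 40.7-fold. The UMIs came from 46 GAP cells, 25.6% (19.4 to 32.6), or 12.2% after thinning. In control cells 0 of 180 had one, which by the limit of 3 counts allows up to 1.67% of cells with a UMI and sets no limit on cells that express the gene at a lower level.

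The Chd5 gene lies on mm10 chromosome 4 at 152338651 to 152390194, on the plus strand. The 250 bases before its start, chr4:152338401-152338650 of GRCm38.p6 on the plus strand, are shown because Chd5 was the one chromatin gene called here whose transcripts were seen in 1 genotype only; the sequence is RefSeq's and lies outside annotated exons. Capitals mark the E-box letters CANNTG on either strand, the class of motif to which Atoh1 and other basic helix-loop-helix factors bind.

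Chd5: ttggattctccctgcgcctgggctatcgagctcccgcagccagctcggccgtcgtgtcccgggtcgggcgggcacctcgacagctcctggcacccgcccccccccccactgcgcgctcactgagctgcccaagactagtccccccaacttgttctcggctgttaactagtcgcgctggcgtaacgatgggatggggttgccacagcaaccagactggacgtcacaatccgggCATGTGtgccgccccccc

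This stretch holds 1 E-box, CATGTG, and 21 CpG dinucleotides, where 16.3% of 32851 mouse promoters of this length have as many or more. An E-box of any kind is found in 66.2% of those promoters, and in 52.9% of the 70 promoters matched to 50 of the chromatin genes, so the match is a description and no site.

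Chd5 was found mostly in the clusters that hold GAP cells alone. By the authors' deposited annotation it was at 44 CPM in cluster 1, named Reprogammed Sup Cells 1 (the authors' spelling), 31.8 CPM in cluster 2, named Reprogrammed Hair Cells, and 11.7 CPM in cluster 7, named Reprogrammed Supp Cells 2. The few GAP cells of cluster 3 were at 30.7 CPM (8.36 to 78.5), all from 1 cell. Those of clusters 5 and 8 were at 8.54 and 8.19 CPM. Clusters 0, 4 and 6 gave no Chd5 UMI, in only 4, 4 and 2 GAP cells. The 17 GAP cells that carry no cluster held 66 of its 203 UMIs, 76.2 CPM (58.9 to 96.9), in 8 cells with 3 to 23 UMIs each. Those 17 cells were deep, with a median of 49455 UMIs. GAP cells with a Chd5 UMI had a median of 37518 UMIs and 1081 CPM of Atoh1, and those without had 28020.5 UMIs and 690.1 CPM. Atoh1 UMIs were present in 93.5% of the 46 cells with Chd5 and in 91% of those without, so most cells with Atoh1 had no Chd5 UMI.

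**Figure D3:**
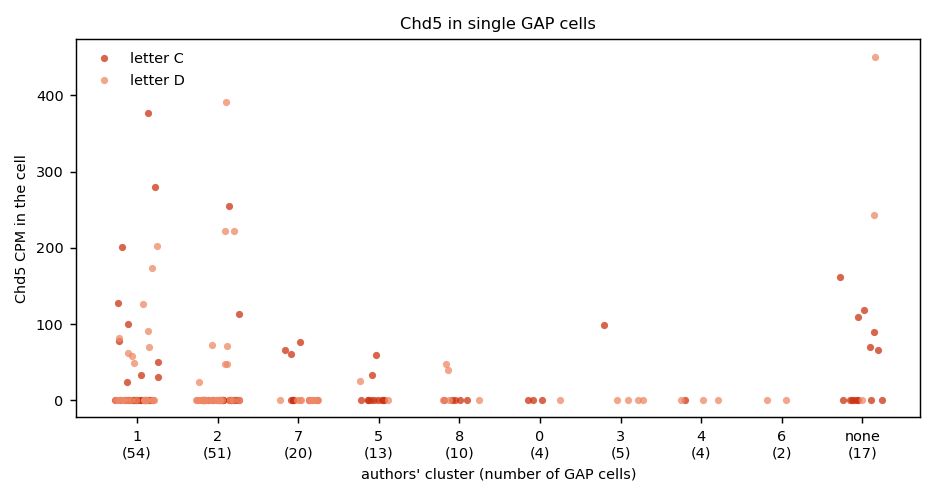
Chd5 CPM in each of the 180 GAP cells (1 point a cell, coloured by plate letter) by the authors' cluster, with the number of GAP cells in brackets. Points above 0 lie mainly in clusters 1 and 2 and among the 17 cells without a cluster, while clusters 0, 4 and 6, with only 4, 4 and 2 GAP cells, hold none.

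The other CHD genes differed less. Chd4, the NuRD motor, had the most UMIs of the family and had 423 and 478 CPM in A and B against 520.1 and 538 CPM in C and D (1.17-fold higher, 1.10 to 1.24). Chd7, the gene of CHARGE syndrome, which includes malformed inner ears, was at 265 and 296 CPM in the control letters and 358 and 421 CPM in the GAP letters (1.38-fold higher, 1.28 to 1.48). Chd6 was 1.24-fold higher (1.15 to 1.33) and Chd9 1.18-fold higher (1.09 to 1.28). Chd2 was 1.26-fold lower (1.14 to 1.38) and Chd1, which binds methylated histone tails at active genes, 1.20-fold lower (1.03 to 1.40), with overlapping letters for Chd1. Chd3 and Chd8 had intervals that include 1.

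Of 9 deacetylases compared, Hdac9 was called, where 12% of all genes were called higher, and Hdac4 lay at the threshold. Both belong, with Hdac5 and Hdac7, to the class IIa enzymes, which repress MEF2 targets. Hdac9 had 14.1 and 3.47 CPM in A and B against 20.8 and 31.6 CPM in C and D, 25.7 against 8.75 CPM pooled and 2.94-fold higher (2.02 to 4.39). The control letters of Hdac9 differ more from each other than A does from C, and the call was lost without letter B, where the log2 ratio was 0.82, against 2.58 without letter A. Hdac4 was at 76.6 and 54.5 CPM in the control letters and 139.6 and 120.3 CPM in the GAP letters, a ratio of 1.998 (1.73 to 2.31) that stayed under 2-fold on the log2 scale, at 0.99. The class I enzymes Hdac1 and Hdac2, catalytic subunits of NuRD and CoREST, were 1.64-fold (1.36 to 1.98) and 1.32-fold (1.12 to 1.56) higher; Hdac1 had 41.3 and 42.6 CPM in A and B against 67.9 and 69.8 CPM in C and D. Hdac5 was 1.36-fold higher (1.22 to 1.52), and Hdac3 was at 129.7 and 147.4 CPM (1.14-fold, 1.02 to 1.27).

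Hdac7, the class IIa enzyme that lay the other way, was at 123.99 and 153.2 CPM in the control letters and 108.5 and 110.8 CPM in the GAP letters, 1.27-fold lower (1.13 to 1.42). Hdac6, a cytoplasmic tubulin deacetylase, was at 36.3 CPM in letter A, 8.92 in B, 10.2 in C and 12.7 in D. Its pooled ratio of 0.51 (0.36 to 0.71) thus rested on letter A, and without that letter the log2 ratio was 0.32. Hdac8 and Hdac10 stayed under 10 CPM.

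Hdac9 was highest in 2 of the 3 clusters that the authors named as supporting cells. It was at 152.1 CPM (113.6 to 199) in cluster 7, the second reprogrammed supporting cluster, and at 54.5 CPM (35.3 to 80.4) in the 29 control cells of cluster 4, named WT Supp Cells. One of the 4 GAP cells in cluster 4 held 13 UMIs, which raised the pooled level of that cluster to 75 CPM. Cluster 1, the first reprogrammed supporting cluster, was at 8.45 CPM (4.73 to 13.9), below the 23.5 CPM of the reprogrammed hair cells of cluster 2. In clusters 0, 3 and 6, named WT Cells 1, 2 and 3, Hdac9 had 2, 0 and 0 UMIs. After thinning 27.3% of the cells of cluster 4 and 55% of those of cluster 7 had a UMI, against 1.19% in cluster 0. Both letters of cluster 7 showed it, at 135.7 and 164.5 CPM, and both control letters of cluster 4, at 66.4 and 23.6 CPM. Cluster 7 also held 1173 CPM of 5 erythroid markers, whose part in the result was not tested.

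The gene lies on mm10 chromosome 12 at 34047580 to 34917095, on the minus strand. The 250 bases before its upstream start, chr12:34917096-34917345 of GRCm38.p6 on the minus strand (RefSeq, outside annotated exons), are shown beside Chd5 because both genes were found mainly in a few clusters, with E-boxes in capitals again.

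Hdac9: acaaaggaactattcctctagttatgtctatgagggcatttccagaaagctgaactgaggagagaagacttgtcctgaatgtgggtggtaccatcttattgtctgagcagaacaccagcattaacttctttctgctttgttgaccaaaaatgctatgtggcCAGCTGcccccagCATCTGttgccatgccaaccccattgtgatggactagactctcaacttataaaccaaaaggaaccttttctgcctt

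This stretch holds 2 E-boxes and 0 CpG, where the median mouse promoter has 6 and the median of the chromatin genes is 19.5. One of the E-boxes reads CAGCTG, found on either strand in 13% of all promoters and 11.4% of those of the chromatin genes. The other reads CAGATG on the opposite strand, found in 14.4% and 8.57%.

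Among the lysine demethylases 16 of 20 could be compared and none was called, where 12% of all genes were called higher and 5.87% lower. Those nearest to the threshold were Kdm4b, which acts on silencing marks, at 24.7 and 36.2 CPM in A and B against 59.4 and 57.1 CPM in C and D (1.91-fold higher, 1.55 to 2.38), and Kdm2b, which recruits a Polycomb complex to CpG islands. Kdm2b was at 28.2 and 9.42 CPM in the control letters and 35.5 and 32 CPM in the GAP letters (1.81-fold, 1.38 to 2.40), and its log2 ratio ran from 0.26 without letter B to 1.74 without letter A. Kdm1a, the flavin-dependent demethylase of the CoREST complex, had 29.7 and 54.5 CPM in A and B against 75.4 and 62.4 CPM in C and D (1.65-fold, 1.37 to 1.99). Its relative Kdm1b was at 31.2 and 15.9 CPM and at 43.3 and 33.2 CPM (1.65-fold, 1.29 to 2.13). Both GAP letters lay above both control letters for each of these 4 demethylases, as for 33.7% of all genes. Such agreement was part of the rule for giving full values, so it adds no support.

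Kdm6b, an inducible eraser of the Polycomb mark, was the demethylase with the most UMIs and lay the other way. It was at 455 and 376 CPM in the control letters and 285 and 268 CPM in the GAP letters, 1.495-fold lower (1.39 to 1.60), with no overlap of letters. Kdm2a and Kdm5b, the next by UMIs, had ratios of 0.94 (0.87 to 1.004) and 0.996 (0.92 to 1.08). Kdm5a was 1.24-fold higher (1.12 to 1.38) and Kdm4a 1.30-fold higher (1.06 to 1.58). Kdm8, under 10 CPM, had 32 UMIs in all.

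Kdm5d, the demethylase of the Y chromosome, separated the plates rather than the genotypes. It was at 28.7 CPM in letter A, 24.3 in B and 59.5 in D, and had 0 UMIs in the 92 cells of letter C, which by the limit of 3 counts allows up to 1.02 CPM (1.26 CPM by the Poisson interval). The pooled ratio of Kdm5d was 1.02 (0.79 to 1.32) and does not show this. Any Y-linked gene of the list had a UMI in 53 of 91 cells of A, 49 of 89 of B, 0 of 92 of C and 76 of 88 of D, so the Y-linked genes together were 0 in letter C. Kdm6a, an X-linked eraser of the Polycomb mark and a gene that escapes X inactivation, was at 83.7, 67.4, 121.15 and 62.8 CPM in A, B, C and D. Letter C stood above the other letters for Kdm6a, and the pooled ratio of 1.25 (1.09 to 1.45) became a log2 ratio of -0.26 without it. Kdm5c, the X-linked relative of Kdm5d, was at 142.1, 113.03, 135.8 and 116.99 CPM, highest in letter A and not in C. So were the X-linked Ddx3x (358, 218, 286 and 187 CPM) and Eif2s3x (25.2, 11.9, 24.6 and 12.7 CPM). Xist had 0 UMIs in every letter; its exons overlap those of Tsix on the opposite strand, which was at 6.05, 0.991, 10.9 and 1.23 CPM. The labels give no sex, and the part of sex in any difference between letters was not tested.

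**Figure D4:**
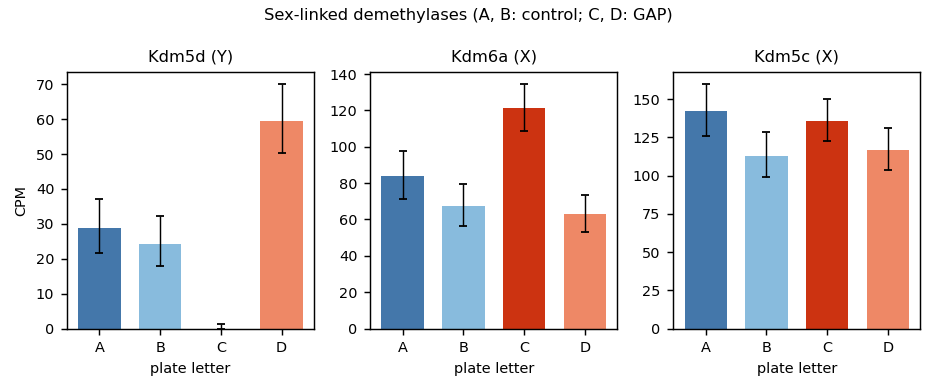
CPM of the Y-linked Kdm5d and the X-linked Kdm6a and Kdm5c in control letters A and B and GAP letters C and D, with 95% Poisson intervals. Kdm5d is at 0 in letter C and at 59.5 CPM in D, and Kdm6a is highest in letter C at 121.15 CPM.

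The writers of histone methylation included the chromatin genes with the most UMIs. None of the 8 compared was called, where 12% of all genes were called higher and 5.87% lower. Kmt2a, a founding member of the mixed-lineage leukaemia methyltransferases, had 864 and 671 CPM in A and B against 694 and 749 CPM in C and D (1.07-fold lower, 1.02 to 1.12). Kmt2e, an inactive relative, was at 844 and 766 CPM in the control letters and 622 and 632 CPM in the GAP letters, 1.28-fold lower (1.22 to 1.35). Kmt2c and Kmt2d, the enhancer methyltransferases, had ratios of 1.04 (0.98 to 1.11) and 1.05 (0.99 to 1.12), and Kmt2b was 1.38-fold higher (1.24 to 1.54), with no overlap of letters. Ezh2, the catalytic subunit of Polycomb repressive complex 2 typical of dividing cells, had 36.3 and 30.7 CPM in A and B against 49.5 and 70.2 CPM in C and D, 1.76-fold higher (1.43 to 2.17). Ezh1, the form typical of resting cells, was at 207 and 196 CPM and at 139.6 and 154.8 CPM, 1.38-fold lower (1.25 to 1.52). Ezh1 was the more abundant form in control cells, at 27.1 against 5.01 CPM per kilobase of exon for Ezh2 and at 201 against 33.5 CPM without division by length. The 10 cycling markers summed to 40.3 and 40.7 CPM in the control letters and 92.5 and 46.4 CPM in the GAP letters, and their part in the Ezh2 level was not tested.

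DNA methylation genes differed little between the genotypes. Dnmt1, the maintenance methyltransferase, had 103.8 and 121.95 CPM in A and B against 137.5 and 154.3 CPM in C and D (1.29-fold higher, 1.14 to 1.45). Dnmt3a, a de novo enzyme, had a ratio of 0.99 (0.89 to 1.11), and Dnmt3b stayed under 10 CPM with 39 UMIs in all. Tet3 had the most UMIs of the dioxygenases that start demethylation and was at 328 and 303 CPM in the control letters and 468 and 445 CPM in the GAP letters (1.45-fold higher, 1.35 to 1.55). Tet1 was 1.21-fold higher (1.05 to 1.40), with overlapping letters, and Tet2 had a ratio of 1.02 (0.94 to 1.11).

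Whether these UMI counts grow with exon length was not tested, so the order of the genes is given both ways. In CPM per kilobase of exon, the highest levels in control cells were those of Kmt2e (77), Smarca4 (64), Kdm6b (59.7), Chd4 (56.2) and Smarcc2 (54.1). Without the division they were those of Kmt2e (805 CPM), Kmt2a (767 CPM), Kmt2c (464 CPM), Kmt2d (459.9 CPM) and Chd4 (451 CPM). Per kilobase in control cells, Smarcc1 was at 20.4, Smarcd1 at 5.09, Smarcad1 at 1.39 and Hdac9 at 0.597. These genes were called as lower in control than in GAP cells, so their place under the highest genes is no separate result.

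Levels across the 9 clusters describe where each gene was found; the authors' clustering can have used these genes, so cluster differences are given without a test. The clusters hold 17 to 84 cells, and clusters 1, 2 and 7 hold GAP cells only. Kmt2d was the most even gene, between 394 and 531 CPM, followed by Smarcc2, between 236 and 336 CPM. Hdac9, Chd5, Kdm7a, Kdm4b and Ezh2 were the least even among the genes compared. Smarcc1 was at 372 CPM (345 to 402) in cluster 1 and 426 CPM (393 to 461) in cluster 2, at 72.3 to 195 CPM in clusters 0, 3, 4 and 6, and at 169.6 CPM (128.8 to 219) in cluster 7. Cluster 7, although of GAP cells, thus lay within the range of the control clusters. Smarcad1 was higher in all of clusters 1, 2 and 7, at 49.6, 36 and 64.3 CPM, against 11.1 to 24.5 CPM in the other clusters.

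Chd7 was highest in clusters 4 and 7, at 663 CPM (594 to 738) and 608 CPM (529 to 697). In cluster 1, also named for supporting cells, it was at 426 CPM, close to the 403 CPM of the hair cells of cluster 2, and at 124.1 to 277 CPM in the remaining clusters. Tet2 was highest in the same 2 clusters, at 472 and 354 CPM against 199 to 259 CPM elsewhere. Dnmt1 was highest in cluster 7, at 257 CPM, against 62.7 to 161.99 CPM. Cluster 6, named WT Cells 3, carried the highest levels of Kdm6b (911 CPM, 831 to 997), Kmt2a (1358 CPM), Kmt2e (1120.4 CPM) and Chd2 (457 CPM). The 12 immediate early and dissociation stress genes summed to 27232 CPM in that cluster and to 3703 to 12795 CPM in the others, and their part in these levels was not tested. Kdm6b was also at 607 CPM in cluster 5 and 470 CPM in cluster 4, the clusters with the next highest sums of these genes, 12795 and 12208 CPM.

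Chd3, the NuRD motor related to Chd4, and Hdac7 were highest in cluster 5, named Reprogrammed Unknown 1, at 223 CPM (189 to 262) and 254 CPM (218 to 295). In cluster 7 they were at 29.2 and 43.9 CPM. Cluster 5 holds 13 control and 13 GAP cells, and its 10 cycling markers summed to 249 CPM against 3.95 to 79.9 CPM elsewhere. Smarca4 was highest in cluster 0, at 512 CPM (480 to 546), and Kdm1a in cluster 1, at 94.1 CPM (80.4 to 109.5). Kdm1a was lowest in cluster 7, at 20.5 CPM. Ezh2 was lowest in cluster 8, named Reprogrammed Unknown 2, with 3 UMIs, 6.65 CPM (1.37 to 19.4).

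**Figure D5:**
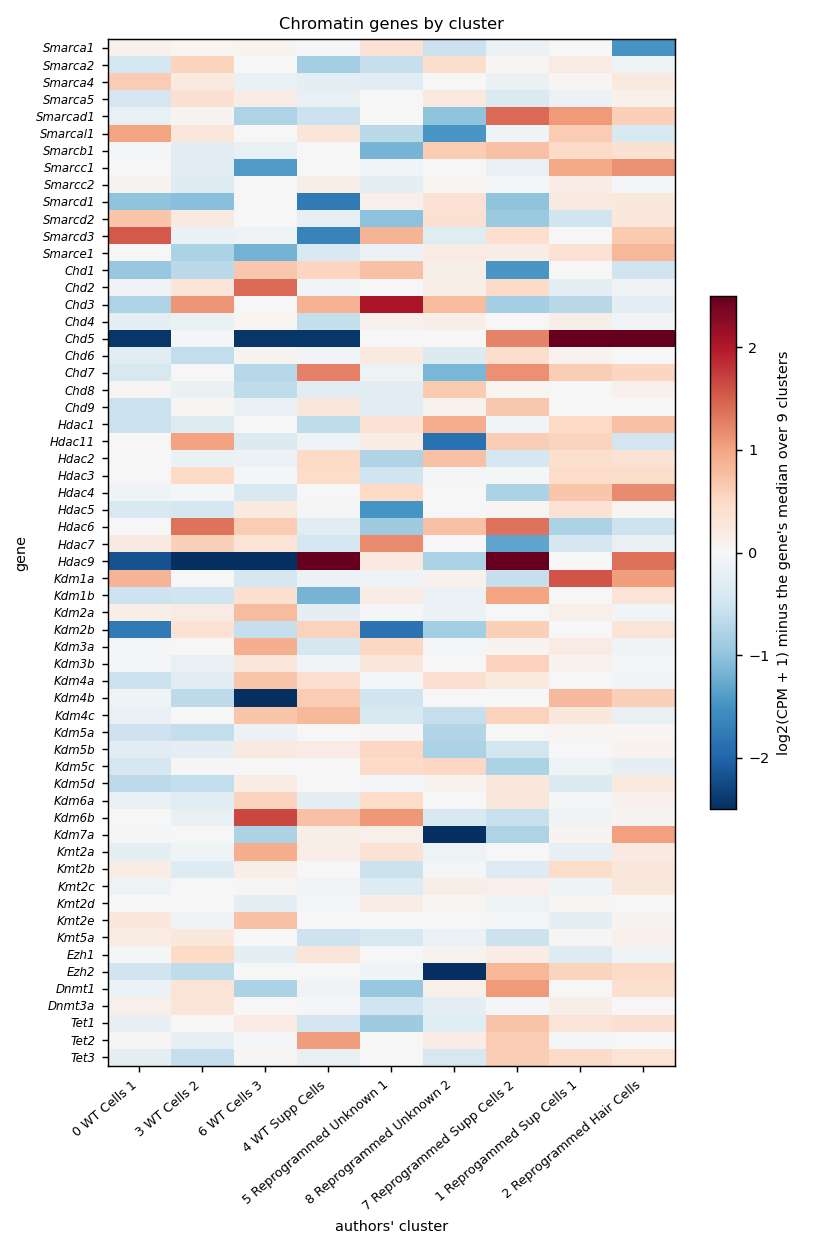
Log2(CPM + 1) of each of the 60 genes minus its median over the 9 clusters of the authors' annotation, with colours cut at the ends of the bar. Chd5 stands out in clusters 1 and 2, Hdac9 and Chd7 in clusters 4 and 7, Kdm6b in cluster 6 and Chd3 in cluster 5, while rows such as Kmt2d and Smarcc2 are even.

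Within the GAP cells, both sides of a comparison lie on plates C and D. GAP cells in clusters whose names begin with Reprogrammed (cluster 1 included) were set against the 15 that the authors placed in other clusters, which held only 343415 UMIs. Of 60 genes 10 were called higher (16.7%, where 21.4% of all genes were) and 1 lower (3.49% of all genes), with a median log2 ratio of 0.21 beside 0.14 over all genes. Kdm1a was at 68.6 CPM against 20.4 CPM (3.36-fold, 1.61 to 8.44), and was higher in C (72.3 against 26.5 CPM) and in D (64.8 against 15.6 CPM). Kdm3b, a demethylase of silencing marks, was at 259 against 93.2 CPM (2.78-fold, 1.96 to 4.08). Chd1 was at 71 against 26.2 CPM (2.71-fold, 1.41 to 5.98), but 1.64-fold in C and 6.37-fold in D, and was not called without letter D or after thinning. Kdm4b was at 56.8 against 23.3 CPM (2.44-fold, 1.22 to 5.71). Kdm6a was at 95 against 40.8 CPM (2.33-fold, 1.37 to 4.30) and was not called after thinning or with the mean of per-cell CPM. Kdm1a, Kdm3b and Kdm4b were called under all 12 other settings tried on these cells, which do not include the split of GAP cells described next. Chd5, Smarcad1, Smarcd1, Kdm7a and Hdac6 were also called, on 1 to 6 UMIs in the other cells, and all of them but Smarcd1 lost the call without letter D. Kdm4a was called lower, at 47.4 against 96.1 CPM (2.03-fold lower, 1.36 to 2.94), a call made under 6 of the 12 other settings and lost without either letter.

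Since clusters 5 and 8 also hold control cells, the cells of clusters 1, 2 and 7 were set against the other 38 GAP cells, a comparison chosen after the data were seen. Chd5, Chd7, Ezh2, Kdm1a, Kdm7a and Tet1 were called higher, 6 of 61 genes (13.7% of all genes), and Chd3 and Hdac7 lower (7.33% of all genes). Kdm1a was at 75.3 against 25.6 CPM (2.94-fold, 1.94 to 4.68) and Chd7 at 434 against 192 CPM (2.26-fold, 1.94 to 2.66). The higher level of Kdm1a did not hold in cluster 7, where it was at 20.5 CPM. Ezh2 was at 67.1 against 33 CPM (2.03-fold, 1.39 to 3.06) and Tet1 at 111.5 against 53.3 CPM (2.09-fold, 1.56 to 2.87). Chd3 was at 37.6 against 172.5 CPM, 4.59-fold lower (3.62 to 5.81), and Hdac7 at 85.1 against 197 CPM, 2.32-fold lower (1.92 to 2.79). Chd5, Kdm1a and Kdm7a were called higher in both comparisons, which share most of their cells. The other genes called higher in the first were not called in the second. Ratios there were 1.06 (0.92 to 1.24) for Kdm3b, 0.99 (0.75 to 1.32) for Chd1 and 0.999 (0.69 to 1.47) for Smarcd1. Kdm4b was 1.88-fold (1.28 to 2.86), Smarcad1 1.94-fold (1.24 to 3.18) and Hdac6 1.80-fold higher (0.76 to 5.19). Kdm6a was 1.33-fold lower (1.05 to 1.66), with letters C and D in opposite directions.

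Cluster 2, named as reprogrammed hair cells, and clusters 1 and 7 pooled, named as reprogrammed supporting cells, differed little in chromatin genes. Cluster 1 made up most of that pool, with 1774728 UMIs against 341882 in cluster 7. Cluster 7 by itself was not compared with cluster 2. Hdac9 was at 152.1 CPM in cluster 7 and 23.5 CPM in cluster 2, and Hdac4 at 43.9 and 175.1 CPM. The names do not split the hair cell markers cleanly: the 12 markers summed to 5028 CPM in cluster 2, 7064 CPM in cluster 1 and 1357 CPM in cluster 7, although 9 of the 12 were higher in cluster 2 than in clusters 1 and 7 together. The 51 cells of cluster 2 were set against the 74 of clusters 1 and 7, and 90% of the 60 genes were within 1.5-fold, against 62.6% of all genes. Again the sets were not matched for level, with 5106 of all 10261 genes at 50 CPM on a side, and its part was not tested. None of the 60 genes was called higher (6.87% of all genes) and 2 were called lower (8.02% of all genes), with a median of -0.02 beside 0.03. Smarca1 was at 11.1 against 32.1 CPM, 2.90-fold lower (1.66 to 5.36), with 6.99 against 29.2 CPM in C and 13.8 against 35.3 CPM in D. Hdac11, the class IV deacetylase, was at 36.7 against 76.1 CPM, 2.07-fold lower (1.51 to 2.88), with 29.7 against 74.9 CPM in C and 41.3 against 77.3 CPM in D. Hdac11 was called under 8 and Smarca1 under 9 of the 12 other settings, and Hdac11 lost the call without letter C. Smarcal1, just inside 2-fold, was at 29.1 against 55.7 CPM (1.92-fold lower, 1.34 to 2.80). Smarcd2 was 1.80-fold higher (1.28 to 2.54), Hdac4 1.56-fold higher (1.30 to 1.88), Smarce1 1.42-fold higher (1.16 to 1.74) and Kmt2a 1.31-fold higher (1.21 to 1.41) in the hair cells, each in both letters. Smarcc1 was at 426 against 339.7 CPM (1.26-fold higher, 1.13 to 1.40), and Chd5 did not differ beyond its counting error (0.82, 0.56 to 1.19).

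Partners of these enzymes were taken from 10 lists of complex subunits and related enzymes, and 6 lists held a called gene, at most 1 in a direction. Of all partners compared, each counted once, 5 (4.76%) were called higher and 2 (1.90%) lower, where 12% and 5.87% of all genes were. Of the CoREST partners of Kdm1a, 8 were compared and Rcor2 was called higher; the list median was 0.32. Rcor2, a CoREST scaffold, had 4.03 and 0.496 CPM in A and B against 35.5 and 37.8 CPM in C and D, 16.2-fold higher (8.38 to 36), and stood at 37.2 and 51.2 CPM in clusters 1 and 2 and 8.77 CPM in cluster 7. With Kdm1a, Hdac1 and Hdac2 above 1 in ratio as well, the CoREST members with no difference beyond counting error included Zmym2 (1.09, 0.98 to 1.21), while Phf21a was 1.31-fold lower (1.14 to 1.502). Of 14 ISWI and INO80 partners Baz1a was called higher, at 13.1 and 4.46 CPM in A and B against 52.6 and 32.4 CPM in C and D (4.96-fold, 3.47 to 7.30), and the list median was 0.16.

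Polycomb partners differed in both directions. Of 8 other PRC2 subunits Mtf2 was called lower, at 89.7 and 103.6 CPM in the control letters and 38.6 and 22.2 CPM in the GAP letters (3.11-fold lower, 2.59 to 3.75), with a list median of -0.07. It was at 24.8, 16.6 and 14.6 CPM in clusters 1, 2 and 7 and at 46.7 to 159.8 CPM in the other clusters. Of 16 PRC1 subunits Cbx7 was called lower, at 139.6 and 194 CPM in A and B against 67.9 and 93.6 CPM in C and D (2.10-fold lower, 1.86 to 2.38), and Yaf2 higher, at 14.7 against 4.50 CPM (3.27-fold, 1.94 to 5.80), with a median of 0.15. Of 10 acetyltransferases Kat2a was called higher, at 14.1 and 15.9 CPM in A and B against 43.7 and 35.7 CPM in C and D (2.67-fold, 1.998 to 3.62), with a median of -0.15. Of 13 other methyltransferases Smyd3 was called higher, at 43.4 against 20.7 CPM (2.09-fold, 1.62 to 2.72), with a median of -0.07. None was called of 15 other SWI/SNF subunits (median 0.05), 9 other NuRD subunits (-0.05), 9 shared COMPASS subunits (0.04) and 5 sirtuins (0.13). Among those NuRD subunits Mbd2 was 1.76-fold higher (1.60 to 1.95) and Mta1 1.66-fold higher (1.498 to 1.83).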

How the data were processed

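The values are the exon UMI counts that the authors deposited, 1 column per cell and not normalized, per the file headers. STAR, HTSeq and the mm10 build are named in the submitters' processing notes. Their versions, the annotation release, the collapsing of UMIs and whether strand was used: not given in the sources used here. Each of the 360 columns matched a sample by title. The authors' deposited annotation puts 341 cells in 9 clusters, used as given. No doublet caller was run on these singly sorted cells.

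Counts were summed over cells and scaled to CPM (Python 3.11.15, numpy 2.4.6, pandas 2.3.3). Ratios have exact conditional-binomial 95% intervals, levels Poisson and shares Clopper-Pearson intervals (scipy 1.17.1), all for counting error only. The limit for a count of 0, and the fold against it, is 3 counts over the cells named. Thinning to 8000 UMIs left out 3 control cells. Log2 ratios add 1 CPM. Positions and exon lengths come from GENCODE M21, matched for 69 of 69 genes. The ratio arithmetic was tested on simulated counts.

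Every member could be named. Full values were meant for genes called and for the 3 per family with most UMIs. Some of these, such as Chd6, Kdm2a, Kdm3b, Kdm5b and Tet2, are given without values per letter. Full values also went to genes at least 1.5-fold apart when pooled, with the same direction in all 4 letter pairings. Of each list of partners they went to the genes called and some of the 4 with most UMIs. Members and lists were chosen with earlier results of these data known. Each result was recomputed with per-cell CPM averaged, with TMM (edgeR 4.0.16) and median-of-ratios scaling, a minimum of 10000 UMIs per cell, thinning, each letter left out, 10 CPM as the pseudocount, 50 CPM or 0 as the filter, a 1.5-fold threshold and the highest cell of each side left out. Cells with a cluster only, and clusters 1, 2 and 7 against other GAP cells, were added after seeing the data.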

Additional observations from a re-analysis of the deposited data

How the results depend on the processing

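Of the recomputed counts and medians 81 stayed within the stated tolerance (1.5 times for a count, the spread between letter pairings for a median) and 36 moved. Among the log2 ratios of the genes called in GAP against control, 0 changes of sign were found. Of all 43 genes followed, the sign held in every setting for 32 and changed in at least 1 setting for the rest. No paired analysis was possible because the replicate numbers only number cells in accession order and no test was made. For GAP against control, the genes called higher numbered 8 without letter A, 3 with a pseudocount of 10 CPM, 1 with a filter of 50 CPM and 13 at 1.5-fold; over the letters left out the count ran from 5 to 8 and the median log2 ratio from 0.09 to 0.26. The genes called lower numbered 1 after thinning (Hdac8), 1 without letter B (Hdac6), 1 without letter D (Kdm5d), 1 with no filter (Kdm8) and 2 at 1.5-fold. Chd5 was called under every setting with a lower filter than 50 CPM; Smarcd1 lay under 2-fold with TMM scaling (0.96), median-of-ratios scaling (0.95), the pseudocount of 10 CPM (0.79), thinning (0.67) and cells with a cluster only (0.94). These scalings moved the median of all genes by -0.07 and -0.08.

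For reprogrammed against other GAP cells, 5 were called higher with a pseudocount of 10 CPM or a filter of 50 CPM, and 6 for clusters 1, 2 and 7, where 2 were called lower. The gene called lower without letter C was Chd3 and not Kdm4a. None was called lower with the mean of per-cell CPM, after thinning, without letter D, with the pseudocount of 10 CPM or without the highest cell of each side. The median was 0.24 with the mean of per-cell CPM, 0.19 with TMM, 0.17 with median of ratios, 0.31 with a minimum of 10000 UMIs, 0.28 without letter C, 0.26 without letter D, 0.17 with the pseudocount, 0.17 with the filter and 0.49 without the highest cells, where that of all genes was 0.64. For hair against supporting cells, 1 was called higher without letter C (Chd3) and 1 without letter D (Smarcd2), and 2 at 1.5-fold. Genes called lower numbered 1 without letter C, 4 without letter D, 0 with the pseudocount and 1 with the filter, and the median without letter D was -0.11. The causes were not tested.

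The limits are those of the design. Each genotype is 1 sample on its own plates, the other GAP cells number 15, and at the depth of a cell most members give few UMIs. Of 43 genes followed through 12 settings the sign of 32 held in all of them. Exons of 24 of the genes overlap those of another counted gene, and 21 of these 29 others had 0 UMIs.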
